A study of Mus musculus with 7 samples.

Results

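The 9 genes described here, Csf1, Csf1r, Spi1, Maf, Tyrobp, Adgre1, Aif1, Lyz2 and Mpeg1, are widely used to recognize macrophages in mouse tissue, and they were chosen by symbol from the 23930 genes of the deposited expression table. All 9 were found, and each averaged 10 RPM or more (reads scaled to 1000000 assigned reads per library) over the libraries. Their levels were compared between 3 libraries from normocapnia, NC1, NC2 and NC3, and 4 from hypercapnia, HC1, HC2, HC3 and HC4, and set beside Pax7, the transcription factor that defines satellite cells, the stem cells of skeletal muscle.

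The mice carried an inducible Pax7-GFP reporter on a C57BL/6 background: CreERT2 placed behind the coding sequence of the Pax7 gene removes a stop cassette in front of a green fluorescent protein that the general CAG promoter drives, so a cell that expressed Pax7 during tamoxifen stays green, as do its descendants. All animals received tamoxifen, were 12 weeks old when they entered room air (normocapnia) or the hypercapnia chamber, and were 16 weeks old at collection after 4 weeks of exposure. The paper's Results give an older age for its C57BL/6 mice housed in the chamber, which conflicts with these ages. The methods, but not the sample labels, give 10% CO2 and an injection of cardiotoxin, a snake toxin that destroys myofibers, into the leg muscles of both groups 3 days before collection, while the deposited table carries a title that names another time and so conflicts with them. GFP-positive mononuclear cells of the hind legs were sorted, the genotype labels number the strain from C57BL/6 to C57BL/12 over the 7 libraries, the labels do not say which libraries came from separate animals, and p-values therefore measure only the spread between these libraries.

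Macrophages enter injured muscle in large numbers, clear dead fibers and release factors that act on satellite cells. Their survival depends on Csf1 (macrophage colony-stimulating factor) binding the receptor tyrosine kinase Csf1r, and their gene program on the transcription factor PU.1, which Spi1 encodes. The other members are working parts of the mature cell: Tyrobp (DAP12) passes signals from surface receptors, Adgre1 is the F4/80 surface antigen, Aif1 (IBA1) binds actin, Lyz2 is the secreted lysozyme M, and Mpeg1 (perforin-2) is a pore-forming protein used against engulfed bacteria.

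The libraries held 14527445 to 23388710 reads, so that 1 read was worth 0.0428 to 0.0688 RPM, and every member except Mpeg1 rested on 981 reads or more in each library. A single amplicon was read per gene, so a value compares a gene between libraries and not genes with each other. NC1 stood apart by its Pax7 level, and NC3 by the 16.6% of reads taken by its 10 most abundant genes, against 8.4% to 12.1% in the other 6 libraries. HC1 with HC2 and HC3 with HC4 were the closest pairs over all genes (chi-square of the reads over its degrees of freedom 24.6 and 27.3, against 104.6 or more for every other pair). Whether the libraries of such a pair came from separate animals is not stated in the labels, and all p-values count them as 4 hypercapnia libraries. Xist, the RNA of the inactive X chromosome, was at 445.2 RPM or more in NC1, NC2, HC1 and HC2 and at 0.125 RPM or less in NC3, HC3 and HC4, which had 103.4 to 206.2 RPM of the Y-linked Ddx3y where the others had none. The paper used mice of both sexes, and the 2 close hypercapnia pairs lay on opposite sides of this split. Values are listed in the order of the library numbers. Group differences are log2 fold changes of hypercapnia over normocapnia on log2(RPM + 1) from limma, and a gene was called where the unadjusted p was under 0.05 and the fold change above 1.5.

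Adgre1, Aif1 and Mpeg1 were higher in hypercapnia and passed these thresholds, and no member was called lower. These 3 of 9 members stand against 1.43% of all genes called higher (2.57% called in either direction). Among the 8229 genes that averaged 10 RPM or more, the more comparable background, 3.07% were called higher and 5.54% in either direction. The 3 called members varied together over the libraries (Pearson r of 0.9 to 0.98), so they do not count as 3 separate results. The members were also chosen with earlier results of these data known. Adjusted by Benjamini-Hochberg over the 23930 genes, no gene of the table was below 0.05 in limma (1114 were at an unadjusted p under 0.05), nor in edgeR, while DESeq2 had 29, no member among them. The median log2 fold change was -0.01 over the members, 0.02 over all genes and 0.13 over genes at 10 RPM or more.

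**Figure D1:**
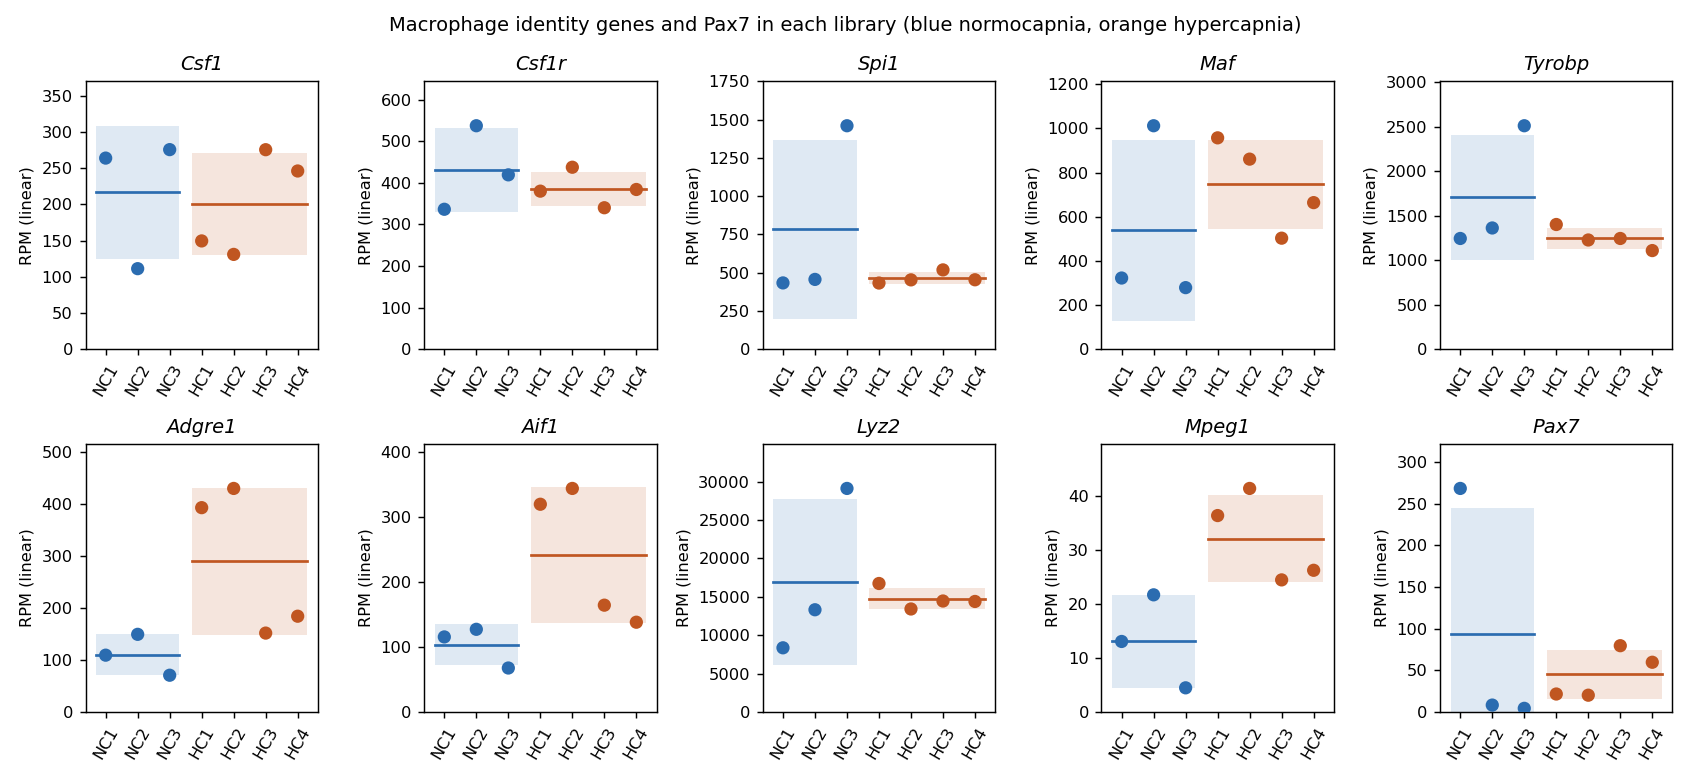
Level of each macrophage identity gene and of Pax7 in the 7 libraries (points, RPM on a linear axis that starts at 0, with its own scale in each panel). Lines are group means and shaded bands 1 SD, clipped at 0, for 3 normocapnia libraries in blue and 4 hypercapnia libraries in orange. The orange points of Adgre1, Aif1 and Mpeg1 lie above all blue points of the same panel, and those of the other 7 genes do not.

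Adgre1 encodes an adhesion receptor that is found on most resident mouse macrophages. It measured 109.0, 149.0 and 70.49 RPM in normocapnia and 392.2, 429.1, 151.4 and 183.8 RPM in hypercapnia. The groups did not overlap, but HC3 lay just above NC2, and the hypercapnia libraries fell into a high pair, HC1 and HC2, and a low pair, HC3 and HC4. The high pair was also the pair with Xist, and the low pair the pair without it. The means were 109.5 ± 39.28 RPM (SD, n = 3) and 289.1 ± 141.7 RPM (SD, n = 4), and the log2 fold change was 1.31 (SE 0.49). The limma p was 0.0403 before and 0.915 after Benjamini-Hochberg adjustment, and an exact permutation test over the 35 assignments of the libraries to groups of 3 and 4, two-sided, gave p = 0.0571, where 0.0286 is the smallest p the design allows.

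Aif1, the cytoplasmic protein behind the ruffling and phagocytic movements of these cells, followed the same order of high and low libraries almost exactly. It measured 115.3, 127.0 and 67.53 RPM in normocapnia and 319.2, 343.5, 164.1 and 137.9 RPM in hypercapnia. The groups again did not overlap, and the nearest pair was NC2 and HC4. The log2 fold change was 1.16 (SE 0.44, limma p = 0.0408, adjusted p = 0.915; exact permutation test, two-sided, p = 0.0571).

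Mpeg1 had the lowest counts of the 9 members. It stood at 13.07, 21.72 and 4.474 RPM in normocapnia and at 36.42, 41.45, 24.49 and 26.27 RPM in hypercapnia. NC3 was the lowest library, with 65 reads (exact Poisson 95% interval 3.45 to 5.7 RPM), and HC3, at 22.1 to 27.0 RPM, had an interval that overlapped that of NC2, 19.9 to 23.7 RPM. Such intervals cover counting error only. The log2 fold change was 1.43 (SE 0.52, limma p = 0.0365, adjusted p = 0.915), and the exact permutation test, two-sided, gave the smallest p it can, 0.0286. Groups that did not overlap, with hypercapnia higher, were found for 3 of 9 members, the same 3 that were called, and for 4.96% of genes averaging 10 RPM or more.

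**Figure D2:**
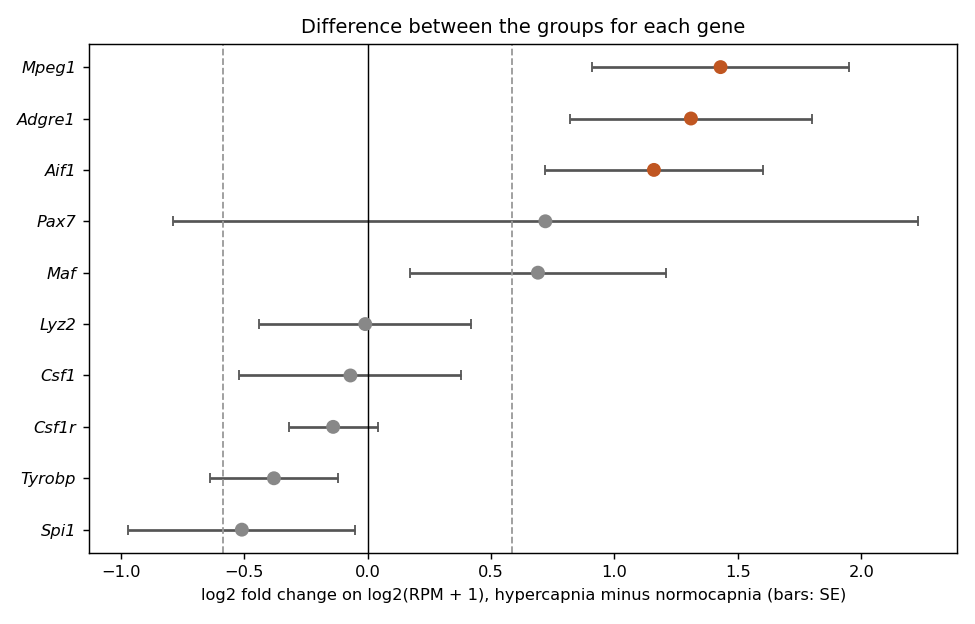
Log2 fold change of hypercapnia over normocapnia for the 9 members and Pax7 (points) with its standard error (bars), from limma on log2(RPM + 1). Dashed lines mark a fold change of 1.5 in either direction, and genes that were called are orange. Mpeg1, Adgre1 and Aif1 lie between 1.16 and 1.43, and the bar of Pax7 spans an SE of 1.51.

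The same 3 members, and no other, were called by edgeR (log2 fold changes 1.36 for Adgre1, 1.19 for Aif1 and 1.29 for Mpeg1, adjusted p = 0.758 for each, with 2.21% of its tested genes called higher) and by DESeq2 (adjusted p of 0.376 to 0.412, with 2.49% called higher). With median-of-ratios scaling, which lowered the median of genes at 10 RPM or more from 0.13 to -0.01, only Mpeg1 was called (1.32% of all genes called higher), with Adgre1 at 1.17 and Aif1 at 1.01. The calls also depended on single libraries. None of the members was called without NC1, where the log2 fold changes were 1.34 for Adgre1, 1.26 for Aif1 and 1.54 for Mpeg1, without HC1 (1.12, 0.98 and 1.36) or without HC2 (1.08, 0.95 and 1.3). The share of all genes called higher was 6.25% without NC1, so that 0 of 9 members stood against a larger background there, and 0.965% and 0.903% without HC1 and HC2. Without NC3 only Mpeg1 was, at a log2 fold change of 0.86 (0.982% of all genes). Adgre1 and Mpeg1 with Maf were called without NC2 (2.8% of all genes), and Adgre1 and Aif1 without HC3 (1.23%) or HC4 (1.16%). The direction of all 3 stayed positive in each of these fits.

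**Figure D3:**
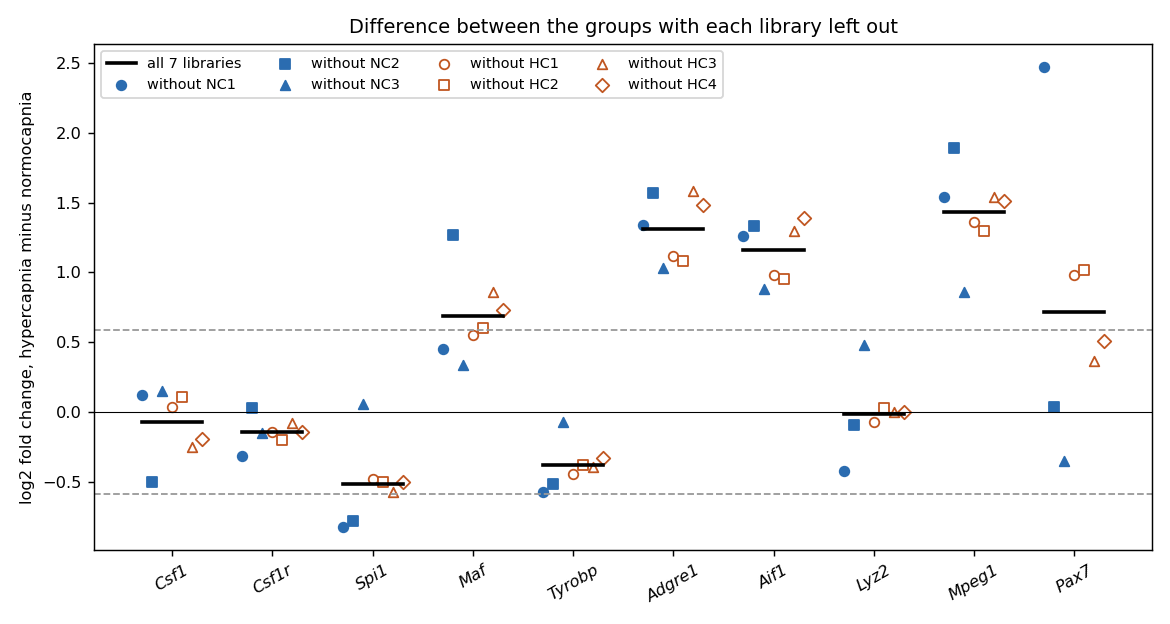
Log2 fold change of hypercapnia over normocapnia for each gene with all 7 libraries (black line) and with each library left out in turn (symbols, blue for a normocapnia and orange for a hypercapnia library). Dashed lines mark a fold change of 1.5. Adgre1 ranges from 1.03 to 1.58, Aif1 from 0.88 to 1.39 and Mpeg1 from 0.86 to 1.89, while Lyz2, Spi1, Csf1, Csf1r and Pax7 take both signs.

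The split of the libraries by Xist ran across both groups, so the members could be read within each side of it. Among the 4 libraries with Xist, Adgre1 was at 109.0 and 149.0 RPM in normocapnia and 392.2 and 429.1 RPM in hypercapnia. Among the 3 without, it was at 70.49 RPM in NC3 and at 151.4 and 183.8 RPM in HC3 and HC4. The same order on both sides follows for Adgre1, Aif1 and Mpeg1 from groups that did not overlap, and the side without Xist held 1 normocapnia library. With Xist, detected or not, as a covariate in limma, a fit added after its values had been seen, the log2 fold changes were 1.5 for Adgre1, 1.32 for Aif1 and 1.6 for Mpeg1, and all 3 were called, as were 3.12% of all genes in the same direction. Their adjusted limma p in that fit were 0.187, 0.129 and 0.313. Maf did not separate on both sides, since NC2 exceeded HC1 and HC2.

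Aif1 and Mpeg1 thus moved together, and the stretch of 250 bases before the transcription start is shown for both, with that of Lyz2, which did not move with them. The sequences are from RefSeq for the GRCm38.p6 assembly, and windows of 4 of the 9 members (Csf1, Lyz2, Aif1 and Mpeg1) were searched here. Capitals mark a match to GAGGAA, the core of the sequence that PU.1 binds, or to TGCTGA, a part of the element that Maf proteins bind. Both strands were searched.
Aif1 (chr17:35176053-35176302, minus strand): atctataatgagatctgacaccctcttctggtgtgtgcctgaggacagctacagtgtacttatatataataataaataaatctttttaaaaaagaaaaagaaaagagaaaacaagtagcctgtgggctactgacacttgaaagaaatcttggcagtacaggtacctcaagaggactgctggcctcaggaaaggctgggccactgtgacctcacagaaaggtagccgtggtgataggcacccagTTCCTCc
Mpeg1 (chr19:12460520-12460769, plus strand): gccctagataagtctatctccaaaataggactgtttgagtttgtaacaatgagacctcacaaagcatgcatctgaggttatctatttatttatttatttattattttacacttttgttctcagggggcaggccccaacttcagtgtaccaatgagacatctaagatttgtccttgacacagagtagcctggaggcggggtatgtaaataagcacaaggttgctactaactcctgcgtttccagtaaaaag
Lyz2 (chr10:117282273-117282522, minus strand): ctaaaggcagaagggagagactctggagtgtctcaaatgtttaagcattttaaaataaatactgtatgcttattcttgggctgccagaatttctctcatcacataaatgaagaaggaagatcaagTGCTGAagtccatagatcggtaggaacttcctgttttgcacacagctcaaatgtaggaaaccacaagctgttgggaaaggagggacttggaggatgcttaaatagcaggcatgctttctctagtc
The window of Aif1 held GAGGAA on its opposite strand, 7 to 2 bases before the start, a match that 23.3% of 32851 windows of the same length share. The Mpeg1 window held none of the motifs. That of Lyz2 held TGCTGA, 125 to 120 bases before the start, as did 16.1% of windows. The longer PU.1 sequence GAGGAAGT, which contains GAGGAA and was present in 2.4% of windows, was in none of the 4.

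Csf1 and its receptor did not differ between the groups beyond the spread of the libraries. Csf1 measured 264.0, 111.3 and 275.7 RPM in normocapnia and 149.6, 131.0, 275.6 and 246.2 RPM in hypercapnia. It was low in NC2, HC1 and HC2 and high in the other 4 libraries, so both groups covered nearly the same range, and its log2 fold change was -0.07 (SE 0.45, exact permutation p = 0.886). Il34, the other ligand of the receptor, was scarce, at 0.964 to 9.144 RPM in normocapnia and 4.665 to 12.18 RPM in hypercapnia (log2 fold change 1.18, exact permutation p = 0.2).

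Csf1r was the steadiest member, with a highest library only 1.6 times the lowest. It measured 336.6, 537.5 and 419.4 RPM in normocapnia and 380.2, 437.7, 340.3 and 384.2 RPM in hypercapnia. All 4 hypercapnia libraries lay inside the normocapnia range, and the log2 fold change was -0.14 (SE 0.18, limma p = 0.459; exact permutation test, two-sided, p = 0.543). The exons of Csf1r overlap those of Hmgxb3 on the opposite strand, and those of Maf overlap Gm15655. Whether the counting used strand is not stated in the sources at hand, and where the amplicons lie within these genes was not examined, so their values may include reads of the overlapping gene.

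Because Csf1r varied little, the other members were also read relative to it, which removes the scale of each library. Adgre1 stood at 0.324, 0.277 and 0.168 of the Csf1r value in normocapnia and at 1.03, 0.98, 0.445 and 0.478 of it in hypercapnia. The groups did not overlap, and the difference on the log2 scale was 1.45 (exact permutation test, two-sided, p = 0.0286, 0.114 after Benjamini-Hochberg adjustment over the 8 members compared). Relative to Csf1r, Mpeg1 differed by 1.57 (exact p = 0.0286, adjusted 0.114) and Aif1 by 1.3 (exact p = 0.0571, adjusted 0.152), both without overlap. The ratios of the other 5 members overlapped between the groups. Csf1r was chosen as the reference by its levels in these same libraries, and Adgre1, Aif1 and Mpeg1 were already known not to overlap between the groups. The p-values of the ratios are therefore a description and no separate support.

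Spi1 and Maf, the transcription factors among the members, had different patterns. Spi1 lay between 432.5 and 518.4 RPM in 6 libraries, at 433.3 and 456.2 RPM in NC1 and NC2 and at 432.5, 453.2, 518.4 and 453.8 RPM in hypercapnia. NC3 alone stood apart at 1460 RPM. The log2 fold change of -0.51 (SE 0.46, exact permutation p = 0.314) became 0.06 without NC3. It was -1.08 in edgeR and -1.13 in DESeq2, where Spi1 was not called either.

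Maf (c-Maf), a leucine zipper factor of mature macrophages, measured 322.5, 1012 and 279.0 RPM in normocapnia and 957.2, 860.8, 502.9 and 663.9 RPM in hypercapnia. Its highest value was in NC2, above all hypercapnia libraries, and its lowest values were in NC1 and NC3. The log2 fold change was 0.69 (SE 0.52, limma p = 0.241; exact permutation test, two-sided, p = 0.286) with all libraries. Without NC2 it was 1.27, and Maf was then called.

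Tyrobp, the adaptor whose ITAM recruits the kinase Syk, was abundant in each library. It measured 1245, 1363 and 2512 RPM in normocapnia and 1402, 1228, 1245 and 1109 RPM in hypercapnia. NC3 was high, and the other 6 libraries lay within 1109 to 1402 RPM with the groups interleaved (log2 fold change -0.38, SE 0.26, exact permutation p = 0.229). In edgeR it was -0.69 and in DESeq2 -0.74, with no call. Hcst (DAP10), a sister adaptor, lay at 8.742 to 28.22 RPM in normocapnia and 9.479 to 17.14 RPM in hypercapnia. Syk stood at 63.4 to 182.6 RPM and 153.0 to 205.9 RPM in the same order (log2 fold change 0.81, exact permutation p = 0.143).

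Lyz2, whose product digests bacterial cell walls, did not follow Adgre1, Aif1 and Mpeg1. It measured 8354, 13310 and 29110 RPM in normocapnia and 16730, 13410, 14450 and 14390 RPM in hypercapnia. The normocapnia libraries held both the lowest value, in NC1, and the highest, in NC3, while the hypercapnia libraries were tight, with an SD of 0.13 on the log2 scale against 0.91. The log2 fold change was -0.01 (SE 0.43, exact permutation p = 0.914), 0.48 without NC3, -0.5 in edgeR and -0.56 in DESeq2, with no call in any.

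Lyz1, a lysozyme gene beside Lyz2, was called lower in hypercapnia, at 102.4, 183.2 and 287.1 RPM in normocapnia and 109.8, 62.41, 62.98 and 78.34 RPM in hypercapnia (log2 fold change -1.19, SE 0.40, limma p = 0.0278, exact permutation p = 0.0857, adjusted limma p = 0.915). The groups overlapped at NC1 and HC1. Its call was lost when any library but NC1 or HC1 was left out, NC3 included (log2 fold change -0.84), with median-of-ratios scaling (-1.33) and with the replicate block (-1.2). The annotated transcripts of the pair, 1316 and 1263 bases long, are 96.0% identical over 1262 aligned bases and share an exact run of 118 bases, so reads could be split between them and the levels of both are uncertain.

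Across the 7 libraries the members followed 3 patterns, which are given as a description since all values come from the same libraries. Adgre1, Aif1 and Mpeg1 varied together, with Pearson r of 0.98 for Adgre1 with Aif1, 0.91 for Adgre1 with Mpeg1 and 0.9 for Aif1 with Mpeg1, and Adgre1 and Mpeg1 ranked the libraries identically. Maf was nearest to them (r of 0.73 to 0.84). Tyrobp, Spi1 and Lyz2 formed the second pattern (r of 0.81 to 0.94), all 3 with their highest value in NC3. Their rank correlations were lower, at 0.57 for Lyz2 with Tyrobp, 0.36 for Lyz2 with Spi1 and 0.29 for Tyrobp with Spi1. Csf1 ran against Maf (r = -0.85, rho = -0.93) and Csf1r (r = -0.76).

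**Figure D4:**
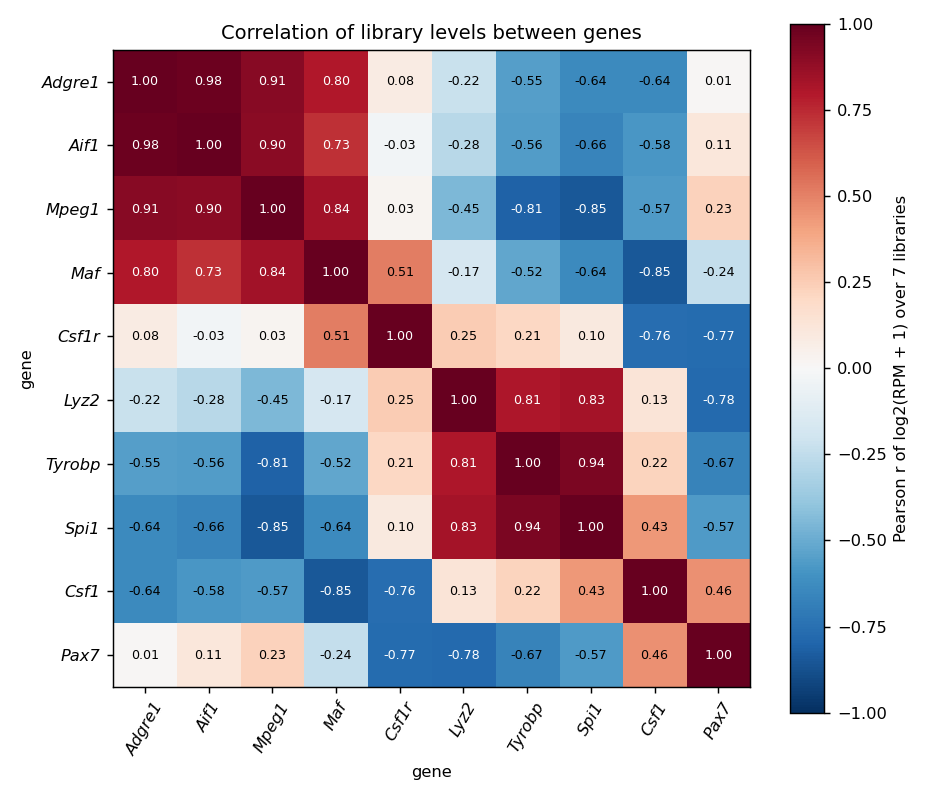
Pearson correlation of log2(RPM + 1) over the 7 libraries for each pair of the 9 members and Pax7 (color and number, from -1 to 1). Adgre1, Aif1, Mpeg1 and Maf form one block of 0.73 to 0.98 and Lyz2, Tyrobp and Spi1 another of 0.81 to 0.94. Mpeg1 with Spi1 is at -0.85, where the rank correlation was -0.54 and Spi1 stood apart in NC3 alone.

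The genes outside the lists whose levels were most like those of a member, among 8128 genes averaging 10 RPM or more, differed between Csf1r, Csf1 and Mpeg1. For Mpeg1 they were Atp6ap1 (r = 0.997), Rufy1 and Clcn7 (0.994 each), Cln8 (0.993) and Pdxk (0.992). Atp6ap1 is an accessory subunit of the proton pump that acidifies lysosomes, and Clcn7 is the lysosomal chloride exchanger. For Csf1 they were Nop56 (r = 0.997), Eif4g2, Ccdc43, Srpk1 and Sec61a1 (0.987), and for Csf1r Mob3b (r = 0.973), Itga5, Cr1l, Pacsin2 and Cramp1l (0.939). All were picked for likeness over the libraries compared here, so their group differences are not given.

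Set beside Pax7, the members spanned very different ratios from library to library, because Pax7 itself did. Pax7 measured 268.3, 8.252 and 4.337 RPM in normocapnia and 21.53, 20.1, 79.53 and 59.65 RPM in hypercapnia. Normocapnia held both extremes, 61.9 times apart, and NC3 had 63 reads. The mean was 93.63 ± 151.3 RPM (SD, n = 3) in normocapnia and 45.2 ± 29.31 RPM (SD, n = 4) in hypercapnia, whereas the log2 fold change was 0.72 (SE 1.51, exact permutation p = 0.714), so mean and log mean differed in sign. The difference depended on NC1 and on the model: without NC1 it was 2.47, past both thresholds of a call, and with all libraries it was -0.84 in edgeR and -0.87 in DESeq2, with no call. The sorted cells are labelled as Pax7+ stem cells, and the other myogenic factors also varied widely: Myf5 was at 217.5 RPM in NC1 and 26.64 RPM in NC3, Myod1 at 301.7 and 7.916 RPM, and Myog at 870.8 and 0.138 RPM in the same libraries.

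Csf1r over Pax7 was 1.25, 65.1 and 96.7 in normocapnia and 17.7, 21.8, 4.28 and 6.44 in hypercapnia. NC1 was the lowest library and the other normocapnia libraries the highest, with hypercapnia between them. Lyz2 over Pax7 ran from 31.1 in NC1 to 6710 in NC3, with 182 to 777 in hypercapnia. Spi1 over Pax7 had the same ends, 1.61 and 337.

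**Figure D5:**
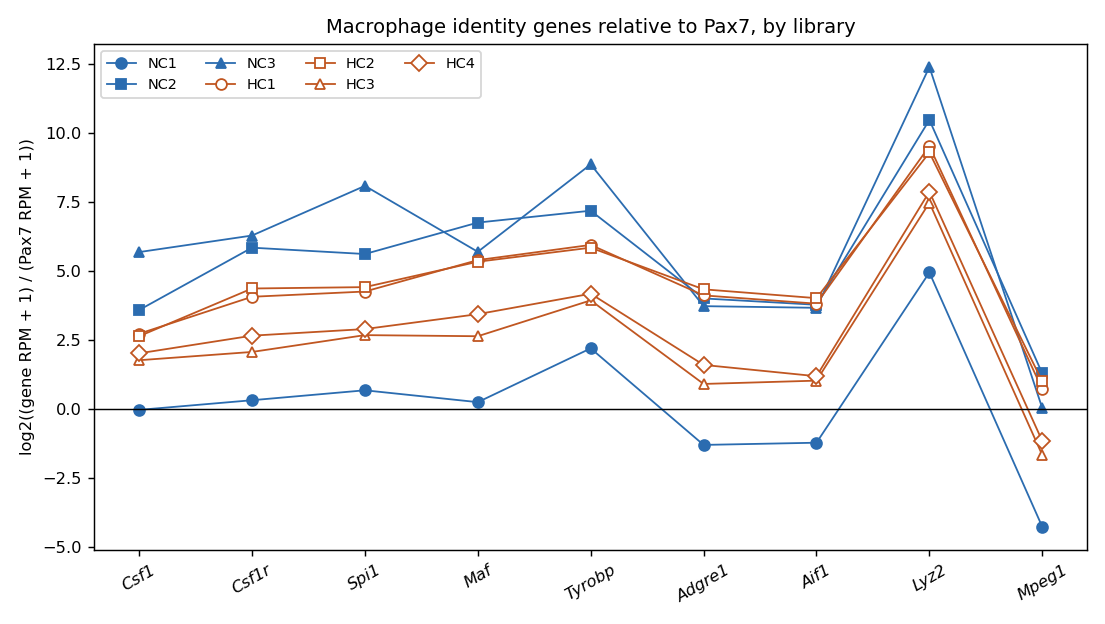
Ratio of each member to Pax7 in each library, as log2 of (RPM + 1) over (Pax7 RPM + 1); lines join the values of a library, filled blue symbols are normocapnia and open orange symbols hypercapnia. NC1 lies lowest for every gene, HC3 and HC4 lie next, and heights of different genes are not comparable because each has its own amplicon.

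Adgre1 over Pax7 was 0.406, 18.1 and 16.3 in normocapnia and 18.2, 21.3, 1.9 and 3.08 in hypercapnia. Aif1 over Pax7 was close to it in each library, from 0.43 in NC1 to 17.1 in HC2. NC2, NC3, HC1 and HC2 were alike in both ratios and NC1, HC3 and HC4 were lower, a division that does not follow the groups. For none of the 9 members did the ratios to Pax7 separate the groups. Pax7 also showed little relation to the 3 called members over the libraries (r = 0.01 for Adgre1, 0.11 for Aif1 and 0.23 for Mpeg1), while it ran against Csf1r (r = -0.77, rho = -0.86) and, less so by rank, Lyz2 (r = -0.78, rho = -0.39).

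Of 26 genes of the Csf1r, PU.1 and Tyrobp network, among them receptors, partner factors and downstream kinases, 0 were called in limma (median log2 fold change 0.17), and 3 had an unadjusted p under 0.05, Ptpn6 and Runx1 among them. Ptpn6, the phosphatase SHP-1, was at 163.5 to 252.6 RPM in normocapnia and 309.5 to 328.1 RPM in hypercapnia. The groups did not overlap, but its log2 fold change of 0.55 (exact permutation p = 0.0286) stayed under the fold threshold. Of 16 other macrophage genes, such as Cd68, Itgam and Fcgr1, 0 were called higher and 1 lower, Lyz1 (median -0.02).

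Genes of all leukocytes were called in 0 of 10 cases in limma (median log2 fold change 0.05), and their summed level was 4650 to 12000 RPM in normocapnia and 6133 to 8136 RPM in hypercapnia. Vav1, at a log2 fold change of 0.52, was under the fold threshold with an exact permutation p of 0.0286. Ptprc (CD45), which marks leukocytes, was at 150.0 to 208.0 RPM and 170.1 to 208.6 RPM in the same order. In RNA of a whole sort, fewer cells of a type and less RNA per cell cannot be told apart.

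Markers of other cells were counted in the same libraries. A sum over a list, and which genes lead it, depends on the amplicon of each gene, so sums compare libraries only. Satellite cell genes, led by Sdc4 and Des, summed to 537.5 to 4899 RPM in normocapnia and 866.8 to 1816 RPM in hypercapnia, with 0 of 14 called. The highest sum was that of NC1, while the median log2 fold change of the 14 was 0.56, with 11 of them above 0. Without Sdc4, which made up most of the sum in NC2 and NC3, the other 13 summed to 4176, 232.0 and 96.23 RPM in normocapnia and 503.4, 438.2, 1366 and 1055 RPM in hypercapnia. Of 10 neutrophil genes, Mmp8 and Cd177 were called higher, where 1.43% of all genes were. The median log2 fold change of the 10 was 0.08, with 7 of them above 0, so the list as a whole did not rise with these 2. Mmp8 was at 7.538 to 17.02 RPM and 26.98 to 34.99 RPM (log2 fold change 1.25), and Cd177 at 2.95 to 3.568 RPM and 10.49 to 30.43 RPM (log2 fold change 2.26), with an exact permutation p of 0.0286 for each. Mmp8 lost its call with median-of-ratios scaling, quantile normalization and the replicate block (log2 fold changes 1.1, 1.15 and 1.24), and Cd177 kept it in all fits. The neutrophil genes, led by Csf3r and S100a9, summed to 85.42 to 231.4 RPM in normocapnia and 118.9 to 360.3 RPM in hypercapnia, with Ly6g at 0.125 RPM or less and Elane at 0.171 RPM or less in each library. Their part in the levels of Adgre1, Aif1 and Mpeg1 was not tested.

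No gene was called among 9 lymphocyte genes (led by Cd79b and Cd4), 6 mast cell genes (Tpsb2 and Cpa3), 10 endothelial genes (Pecam1 and Cdh5), 9 fibro-adipogenic genes (Dcn and Gsn), 8 myofiber genes (Tnnt3 and Acta1) and 3 red cell genes (Alas2 and Slc4a1). Endothelial genes summed to 101.7 to 246.5 RPM in normocapnia, to 68.53 and 56.53 RPM in HC1 and HC2 and to 595.4 and 450.4 RPM in HC3 and HC4. HC1 and HC2, low in this sum, were the libraries with the highest Adgre1 and Aif1, and the part of this in their levels was not tested.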

How the data were processed

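RNA of sorted Pax7-GFP cells was amplified by the authors with an AmpliSeq mouse panel, sequenced on an Ion S5 instrument and deposited as RPM for 23930 genes. Neither aligner nor genome build is given in the sources used here. Whole reads were recovered for 100% of values (within 0.05 reads). Groups came from the sample labels. The members and all gene lists were chosen with earlier results of these data known. RPM values were tested with limma 3.58.1 in R 4.3.3 as log2(RPM + 1) over all genes, with the call set at an unadjusted p below 0.05 together with a change of more than 1.5-fold, and Benjamini-Hochberg adjustment over all genes. The computations were tested on simulated data. Alternatives were pseudocounts of 0.1 and 5 RPM, a filter at a mean of 1 RPM, other scalings, limma-trend, edgeR 4.0.16 and DESeq2 1.42.0 on whole reads, the replicate number as a block and each library left out. Chosen after seeing the data were the Xist covariate, the ratios to Csf1r with their alternatives, and the alternatives for genes other than the members and Pax7. Genes named are the members, Pax7, Lyz1, Il34, Hcst, Syk, called genes of the macrophage and leukocyte lists, the 2 most abundant and all called genes of other lists, and the 5 genes most like Csf1r, Csf1 and Mpeg1; an item that the rule names is not reported here. Ptpn6, Runx1, Vav1, Ptprc, Ly6g, Elane, Myf5, Myod1, Myog, Cd68, Itgam, Fcgr1, Xist and Ddx3y are outside it and were added with their values in view. Hmgxb3 and Gm15655 are named only for their exon overlaps, without values.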

Additional observations from a re-analysis of the deposited data

How the results depend on the processing

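The 3 calls kept their direction under all alternatives run, but not their side of the threshold. The number of members called was 3 in every model fitted to all 7 libraries except median-of-ratios scaling, where it was 1 (Mpeg1), and 0 to 3 when single libraries were left out. In the exact permutation test Mpeg1 alone was under 0.05. The replicate numbers do not pair the libraries (correlations of same-numbered deviations -0.38, 0.51 and 0.03), and the replicate block gave 3 member calls, with log2 fold changes of 1.48, 1.39 and 1.51 for Adgre1, Aif1 and Mpeg1. Signs turned for 4 members without a call and for Pax7. Over the libraries left out, log2 fold changes ran from -0.42 to 0.48 for Lyz2, -0.50 to 0.15 for Csf1, -0.31 to 0.03 for Csf1r, -0.82 to 0.06 for Spi1 and -0.35 to 2.47 for Pax7, which passed the call thresholds without NC1. Lyz2 was at 0.05 with quantile normalization and 0.00 with the replicate block, and above 0 without NC3 (0.48), HC2 (0.03) or HC4 (0.00). Csf1 was at 0.12, 0.15, 0.04 and 0.11 without NC1, NC3, HC1 and HC2, Csf1r at 0.03 without NC2, and Spi1 at 0.06 without NC3. Pax7 was at -0.84 and -0.88 with edgeR, with and without its filter, and -0.87 with DESeq2. Log2 ratios to Csf1r ran from -0.53 to 0.43 for Csf1, -0.12 to 0.63 for Lyz2, -0.54 to 0.08 for Tyrobp and -0.81 to 0.21 for Spi1 in the same fits. With a library left out the exact test cannot fall under 0.05. The causes of these changes were not tested. Over all genes 615 were called (343 higher, 272 lower), against 1304 with DESeq2, 1049 with edgeR without a filter, 1210 with the Xist covariate and 376 to 1990 with a library left out. The balance of higher and lower calls moved with the scaling, to 197 and 554 when centred on leukocyte genes and 336 and 357 with quantile normalization, and was 294 and 508 with edgeR, which changes the model and the filter too. Among the members and Pax7, depth is lowest for Mpeg1 and Pax7 in NC3, with 65 and 63 reads, and other genes named, such as Il34, Myog, Cd177, Ly6g and Elane, rest on fewer there.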
